A study of Arabidopsis thaliana with 9 samples.

Results

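The core autophagy genes of Arabidopsis thaliana outside the ATG8 family were examined in leaves given BrvC. The set was named by locus and holds 8 genes: ATG1A (AT3G61960), ATG3 (AT5G61500), ATG4A (AT2G44140), APG5 (AT5G17290), APG7 (AT5G45900), APG9 (AT2G31260), ATG13 (AT3G49590) and ATG18A (AT3G62770). Of these 8, only ATG1A and ATG3 had an array row paired with exactly 1 gene, and the other 6 had no row listed for them, so that they were not analysed here. The 2 measured genes stand among 16550 genes measured in this way, and neither was removed by a filter on low signal. They are 1 gene of the initiation step and 1 gene of the conjugation step, and they cannot stand for the 6 genes without a value.

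Autophagy encloses cytoplasm in a double membrane, the autophagosome, and delivers it to the vacuole for breakdown. The ATG1 kinase with its partners ATG13, ATG11 and ATG101 starts the process, a phosphatidylinositol 3-kinase complex marks the membrane, and ATG9 and ATG18 act in its growth. A pair of linked conjugation reactions, carried by ATG7, ATG3, ATG10, ATG5, ATG12 and ATG16, attaches the ubiquitin-like protein ATG8 to the lipid phosphatidylethanolamine, and the protease ATG4 prepares ATG8 for it. In leaves the pathway is best known for recycling cell contents under darkness, starvation and senescence.

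BrvC is a brevicompanine, one of a group of fungal alkaloids. Detached leaves of ecotype Col-0 plants aged 30 days were immersed in MS medium in darkness, and each sample pooled 10 to 15 leaves and was measured on 1 Affymetrix array. The groups, of 3 biological replicates each, were BrvC 48 h (50 µM BrvC for 48 h), BrvC 6 h (50 µM BrvC for 6 h) and control (0.05% DMSO, the solvent). How long the control leaves stayed in darkness is not stated, and the same 3 control arrays served both times. A common incubation time could match 6 h or 48 h, not both. In at least 1 comparison with control, BrvC therefore cannot be told apart from time in the dark and time since cutting. Which comparison, or whether both, is not known. Between BrvC 48 h and BrvC 6 h, time with BrvC cannot be told apart from time in the dark.

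The measured quantity is the authors' RMA value, a log2 signal per array row, and a log2 fold change here is a difference of group means on that scale. Arrays of a group correlated at 0.978 to 0.993 over the 16550 genes, and no columns were identical. Of the leaf markers listed, 2 of 7 had a row of their own. RCA, the Rubisco activase, lay between 9.69 and 10.11 in control leaves, and PRK, the phosphoribulokinase, between 6.20 and 6.36. The root hair expansin EXPA7 was between 2.22 and 2.81 on all 9 arrays, and no flower or seed marker of the lists had a row of its own. The precision of every value is limited by 3 arrays per group.

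ATG1A encodes a protein kinase of the initiation complex. Its log2 signal was 10.28, 10.29 and 10.10 in BrvC 48 h leaves, 9.88, 9.76 and 9.87 in BrvC 6 h leaves, and 10.31, 10.31 and 10.27 in control leaves. All 3 BrvC 6 h arrays were thus below every array of the other groups, while BrvC 48 h and control overlapped. The means were 10.22 ± 0.10 at 48 h, 9.84 ± 0.07 at 6 h and 10.30 ± 0.03 in control (SD, n = 3 each). From the highest level to the lowest the order was control, BrvC 48 h and BrvC 6 h, and the first 2 of these did not differ beyond the spread.

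ATG3 encodes the E2-like enzyme that passes ATG8 to its lipid. Its log2 signal was 8.36, 8.30 and 8.13 in BrvC 48 h leaves, 7.82, 7.84 and 7.78 in BrvC 6 h leaves, and 8.31, 8.15 and 7.95 in control leaves. The BrvC 6 h arrays were again the lowest 3 of the 9, and BrvC 48 h and control overlapped. The means were 8.26 ± 0.12 at 48 h, 7.81 ± 0.03 at 6 h and 8.14 ± 0.18 in control (SD, n = 3 each). The order from the highest was BrvC 48 h, control and BrvC 6 h, with the first 2 within each other's spread. Replicate 3 was the lowest of its group at both 48 h and 6 h and in control, with the widest range in control.

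**Figure D1:**
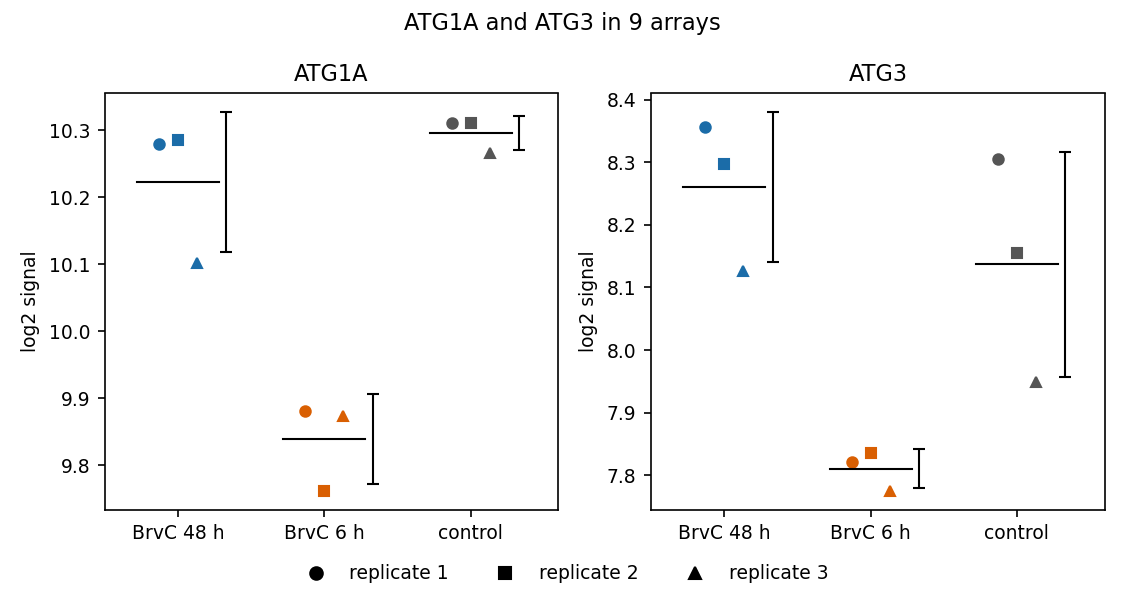
Log2 signal of ATG1A (left) and ATG3 (right) on each of the 9 arrays, by group, with the marker shape giving the replicate number, the horizontal line the group mean and the bar the SD (n = 3). The axes differ and do not start at 0. In both genes the 3 BrvC 6 h arrays lie below the 6 others, at 9.76 to 9.88 for ATG1A and 7.78 to 7.84 for ATG3.

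The first comparison set BrvC 6 h leaves against control leaves. ATG1A fell to 9.84 in BrvC 6 h leaves, against 10.30 in control leaves, a log2 fold change of -0.46 (SE 0.15, limma adjusted p = 0.0402), which is 1.37-fold lower. ATG3 had 7.81 in BrvC 6 h leaves and 8.14 in control leaves, a log2 fold change of -0.33 (SE 0.16, limma adjusted p = 0.166) that did not pass the test, with a 95% interval of -0.68 to 0.03. So 1 of the 2 genes was called, in a comparison where limma with Benjamini-Hochberg adjustment at 0.05 called 27.4% of all genes, and 13.2% of all genes as lower. In both genes every BrvC 6 h array was below every control array, as in 21.6% of all genes. Neither change was large for this comparison, since 37.2% of all genes had a larger absolute log2 fold change than ATG1A and 49.9% a larger one than ATG3. In these bulk leaf samples, fewer cells of a type and less RNA per cell cannot be told apart.

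The call of ATG1A was at the edge of the test. It was lost when any 1 of the 6 arrays was left out (limma adjusted p = 0.0585 to 0.128, with log2 fold changes of -0.48 to -0.42). After renewed quantile normalization the log2 fold change was -0.19 for ATG1A (adjusted p = 0.422) and -0.20 for ATG3 (adjusted p = 0.418). In the deposited values the array medians over all rows differed, from 4.17 to 4.25 in BrvC 6 h leaves against 3.80 to 3.93 in control leaves, while over the 16550 genes they were 3.83 to 3.87 and 3.80 to 3.85. The arrays of ATG1A itself varied little around their group means, with a pooled SD of 0.073, and the SD that limma used after borrowing from all genes was 0.187. For ATG3 these values were 0.126 and 0.200. An exact permutation test of either gene gave p = 0.1 (two-sided), the smallest that 3 arrays against 3 allow.

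At 48 h neither gene passed the test against control. ATG1A averaged 10.22 in BrvC 48 h leaves and 10.30 in control leaves, a log2 fold change of -0.07 with a 95% interval of -0.40 to 0.26 (limma adjusted p = 0.817). ATG3 averaged 8.26 in BrvC 48 h leaves and 8.14 in control leaves, a log2 fold change of 0.12 with an interval of -0.23 to 0.48 (limma adjusted p = 0.706). Limma called 0 of the 2 genes, also at an unadjusted p under 0.05, against 10.6% of all genes by the adjusted p. By a check on all genes, arrays of the same replicate number varied alike in these groups, though the labels state no pairing. Taken by replicate number, BrvC 48 h minus control was -0.03, -0.03 and -0.17 for ATG1A and 0.05, 0.14 and 0.18 for ATG3, of 1 sign in each gene. With the replicate block over all 9 arrays neither was called (limma adjusted p = 0.81 for ATG1A and 0.676 for ATG3). The intervals reach -0.40 for ATG1A and 0.48 for ATG3, so that equal levels were not shown.

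Between the treated groups both genes had higher values at 48 h, and neither passed the adjusted test. ATG1A differed by 0.38 on the log2 scale (SE 0.15, 95% interval 0.05 to 0.71, limma adjusted p = 0.102), with all 3 BrvC 48 h arrays above all 3 BrvC 6 h arrays. ATG3 differed by 0.45 (SE 0.16, interval 0.10 to 0.80, limma adjusted p = 0.0709), also without overlap, and 19.2% of all genes had every BrvC 48 h array above every BrvC 6 h array. Limma thus called 0 of the 2 genes, although both had an unadjusted p under 0.05 and 20.3% of all genes were called, 9.62% as higher. With array weights, both genes were called as higher at 48 h (limma adjusted p = 0.0474 for ATG1A and 0.0274 for ATG3). With an intensity trend and a robust prior both were called too (0.0489 and 0.0478). After renewed quantile normalization the differences were 0.11 for ATG1A (adjusted p = 0.722) and 0.31 for ATG3 (0.235).

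**Figure D2:**
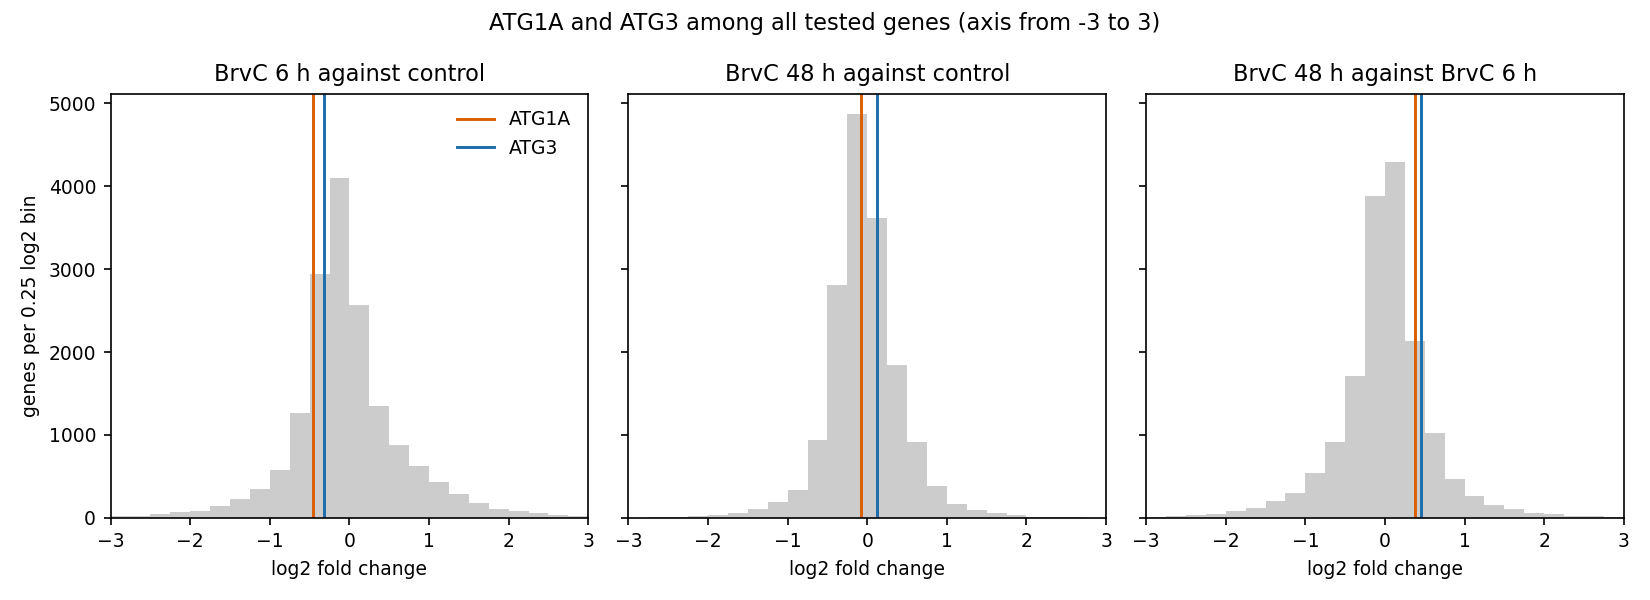
Number of genes (vertical axis, per bin of 0.25) against log2 fold change (horizontal axis) for the 16550 tested genes in the 3 comparisons, with lines at ATG1A and ATG3. Both lines lie inside the bulk of the genes: at 6 h against control ATG1A is at -0.46 and ATG3 at -0.33, and at 48 h against 6 h they are at 0.38 and 0.45.

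The other core genes of the pathway, outside ATG8, were taken from a list of 25 loci, of which 8 had a row of their own. The reference table gives these 8 by locus, with a name only for ATG101, and their usual names are used here: ATG1B (AT3G53930), ATG1C (AT2G37840), ATG1T (AT1G49180), ATG13B (AT3G18770), ATG101 (AT5G66930), VPS38 (AT2G32760), ATG14B (AT4G08540) and ATG16 (AT5G50230). At 6 h, 3 of the 8 fell against control and none rose, beside 13.2% of all genes called as lower and 27.4% called in either direction. At 48 h limma called 0 of the 8 against control (0 also at an unadjusted p under 0.05), where 10.6% of all genes were called. Against 6 h, 3 of the 8 were higher at 48 h and none was lower, where 9.62% of all genes were called as higher and 20.3% in either direction. The median log2 fold change of the 8 was -0.41 at 6 h, 0.03 at 48 h and 0.36 for 48 h against 6 h, beside medians of -0.10, -0.06 and 0.02 over all genes. This list was chosen with earlier results of these data known.

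Among the ATG1 kinases, ATG1A and ATG1T fell at 6 h and the other 2 did not pass the test. ATG1T, a truncated form of the kinase, had 6.21, 6.16 and 5.95 in BrvC 6 h leaves and 6.50, 7.04 and 6.59 in control leaves, without overlap (log2 fold change -0.60, SE 0.18, limma adjusted p = 0.0243). Its call was lost without BrvC 6 h replicate 2 (adjusted p = 0.0565), BrvC 6 h replicate 3 (0.0943) or control replicate 2 (0.0911). It was also lost under 2 of 11 other settings, counting the stricter threshold (highest limma adjusted p = 0.0504). ATG1B averaged 7.77 ± 0.12 in BrvC 6 h leaves and 8.08 ± 0.27 in control leaves (SD, n = 3 each; log2 fold change -0.30, adjusted p = 0.241). ATG1C was the only one of the 4 kinases with a positive value, 0.19 (95% interval -0.15 to 0.53, adjusted p = 0.419). Differences between the kinases were not tested, and rows of related kinases can share sequence.

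The partners of the kinase showed the largest changes among the core genes measured at 6 h. ATG101, which binds ATG13 in the complex, had 7.46, 7.44 and 7.47 in BrvC 6 h leaves and 8.67, 8.49 and 8.61 in control leaves. It fell by 1.14 on the log2 scale, or 2.20-fold (SE 0.17, limma adjusted p = 0.000179). The 3 BrvC 6 h arrays lay close together (SD 0.017) and below every control and BrvC 48 h array. At 48 h ATG101 had 8.35, 8.56 and 8.80, which spans the control values (log2 fold change -0.02, 95% interval -0.38 to 0.34), and it was higher than at 6 h by 1.11 (adjusted p = 0.000307).

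ATG13B, a copy of the ATG13 subunit that links the kinase to its regulation, had 6.41, 6.46 and 5.93 in BrvC 6 h leaves and 6.90, 7.19 and 7.66 in control leaves. The groups did not overlap, and the log2 fold change was -0.99 (SE 0.23, limma adjusted p = 0.0061). At 48 h its values were 6.78, 6.95 and 7.36, with replicate 3 the highest as in control, and the difference from control was -0.22 (95% interval -0.72 to 0.29). It was higher at 48 h than at 6 h by 0.77 (adjusted p = 0.0334), a call lost without BrvC 48 h replicate 2 or 3 or BrvC 6 h replicate 1 or 3 (adjusted p = 0.0593 to 0.146) and over every row of the value table (0.0738). Counting ATG1A with them, 4 of the 6 measured genes of the initiation complex fell at 6 h, where limma called 13.2% of all genes as lower. At 48 h limma called 0 of the 6 against control (0 at an unadjusted p under 0.05), beside 10.6% of all genes. Higher at 48 h than at 6 h were 3 of the 6, beside 9.62% of all genes. The shares over all genes, here and elsewhere, were not matched for signal. These 6 genes had group means of 6.11 or more, while the array medians over all genes were 3.80 to 3.87. A share among genes of like signal was not taken.

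**Figure D3:**
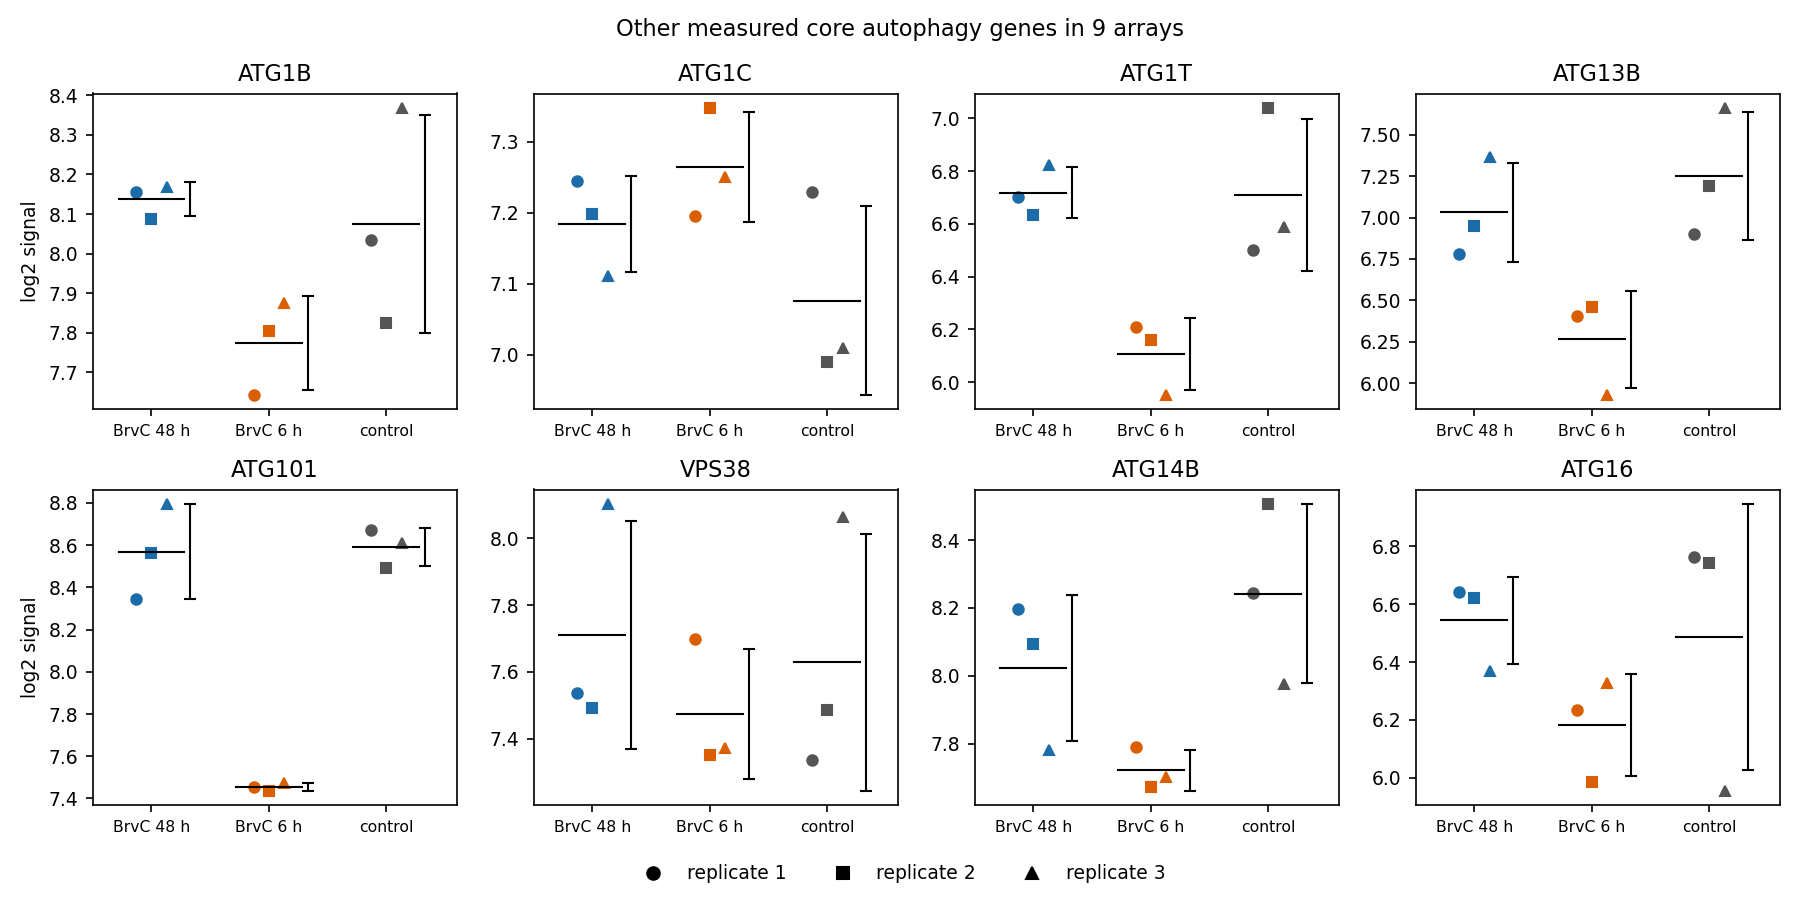
Log2 signal of the 8 other measured core autophagy genes on each of the 9 arrays, drawn as for ATG1A and ATG3 (line, group mean; bar, SD, n = 3; marker shape, replicate number; axes differ and do not start at 0). The BrvC 6 h arrays lie below all control arrays in ATG1T, ATG13B, ATG101 and ATG14B, and not in ATG1B, ATG1C, VPS38 and ATG16.

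The genes of the later steps did not pass the test at 6 h. ATG14B, a subunit that directs the phosphatidylinositol 3-kinase complex to autophagy, averaged 7.72 ± 0.06 in BrvC 6 h leaves and 8.24 ± 0.26 in control leaves (SD, n = 3 each). Its log2 fold change of -0.52 was just outside the threshold (limma adjusted p = 0.0518), and it was called as lower under 6 alternatives, among them centring the arrays on their median (adjusted p = 0.0375). VPS38, another subunit of this kinase complex, had -0.15 (95% interval -0.65 to 0.34). ATG16, which anchors the ATG12-ATG5 conjugate that works with ATG3, had -0.30 (interval -0.78 to 0.17), with control replicate 3 at 5.95 and the other controls at 6.76 and 6.74. Without that array the log2 fold change of ATG16 was -0.57 (adjusted p = 0.0367).

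Over all 10 core genes measured, ATG1A and ATG3 included, 9 had a negative log2 fold change at 6 h against control. Most genes were negative there too, with a median of -0.10 over all genes, beside -0.39 for the 10. Of the 9, 4 passed the test, beside 13.2% of all genes called as lower. The leaf marker RCA also fell at 6 h (log2 fold change -0.58, limma adjusted p = 0.027, lost without any 1 of 4 arrays and after renewed quantile normalization), while PRK had 0.30 (adjusted p = 0.326). Whether a change in these markers has a part in the values of the core genes was not tested. For 48 h against 6 h, 9 of the 10 were positive, where the median over all genes was 0.02. Of the 10, 3 passed as higher, beside 9.62% of all genes. Against control at 48 h, 4 were negative and 6 positive, all between -0.22 and 0.12, and limma called 0 of them. The comparisons share the control arrays or the BrvC 6 h arrays, so that their values are set side by side here without a test of likeness.

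**Figure D4:**
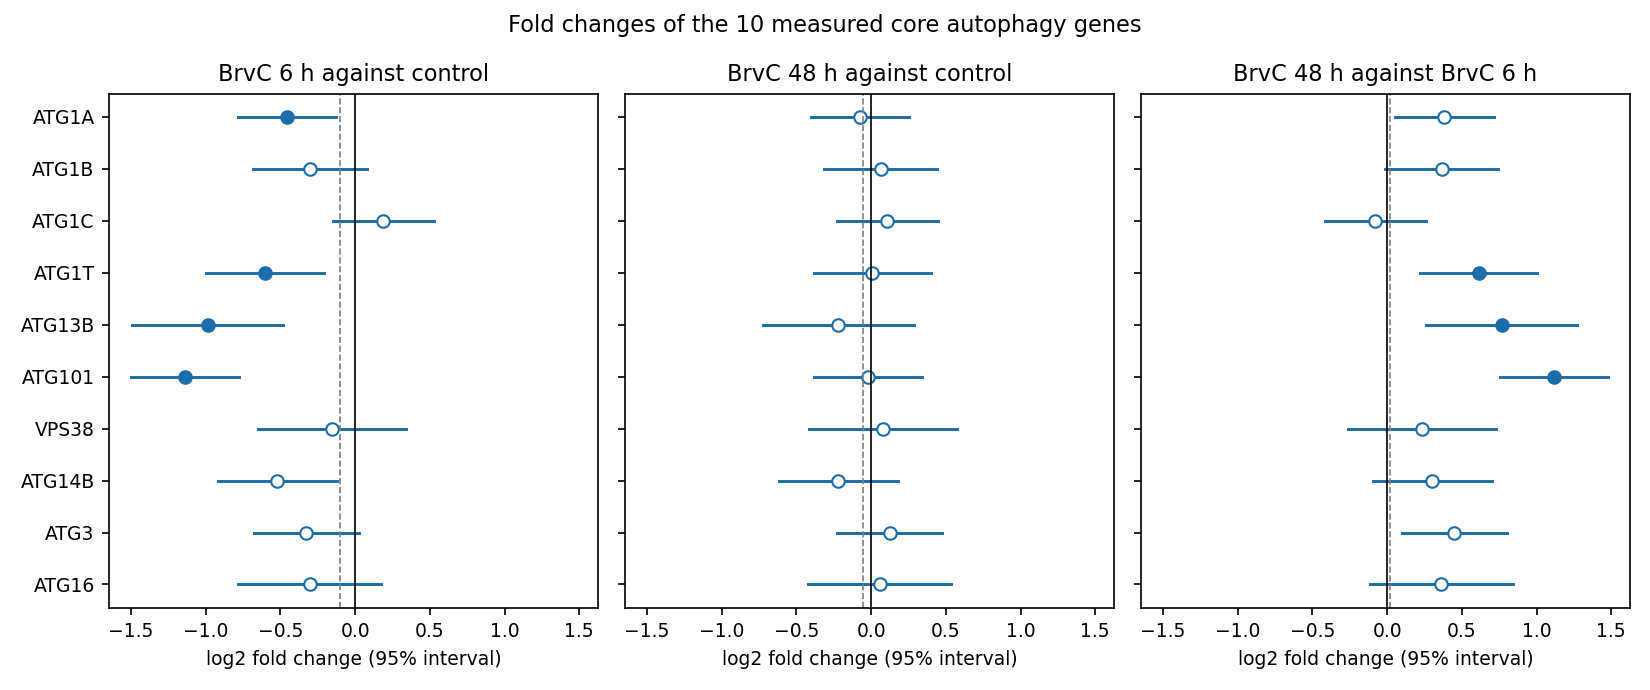
Log2 fold change (point) with its 95% interval from limma (line) for the 10 measured core autophagy genes, from initiation (top) to conjugation (bottom), in the 3 comparisons. Filled points passed an adjusted p of 0.05, and the dashed line is the median of all genes. At 6 h ATG1A, ATG1T, ATG13B and ATG101 are filled, at 48 h against control none is, and at 48 h against 6 h ATG1T, ATG13B and ATG101 are.

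ATG8, the protein that ATG3 conjugates, is encoded by 9 genes, all with a row of their own. Of these, 6 fell at 6 h (ATG8A, ATG8B, ATG8E, ATG8F, ATG8H and ATG8I) and ATG8C, ATG8D and ATG8G did not pass the test, with a median log2 fold change of -1.13, beside 13.2% of all genes called as lower. At 48 h ATG8D (0.75, limma adjusted p = 0.0336) and ATG8G (0.70, adjusted p = 0.0267) were higher than control, calls lost without any 1 of 5 arrays for ATG8D and of 3 for ATG8G and, for both, in the fit to these groups alone, and 10.6% of all genes were called. Higher at 48 h than at 6 h were 7 of the 9, beside 9.62% of all genes. After renewed quantile normalization ATG8F lost its call at 6 h (-0.20, limma adjusted p = 0.37). SH3P2, a membrane protein that binds ATG8, was the only receptor or adaptor of 7 listed with a row of its own. It averaged 5.82 ± 0.10 in BrvC 6 h leaves and 6.48 ± 0.53 in control leaves (SD, n = 3 each; log2 fold change -0.67, limma adjusted p = 0.0491). Without control replicate 3 it had -0.40 (adjusted p = 0.165), and the call was also lost without any 1 of 4 other arrays, with array weights, over every row of the value table and in the fit to these groups alone.

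Upstream of ATG1, the kinase TOR restrains autophagy and the kinase SnRK1 promotes it, and 4 of 11 listed genes of these complexes had a row of their own. KINBETA1, a regulatory subunit of SnRK1 (AKINBETA1 in the reference table), had 9.03, 9.15 and 9.11 in BrvC 6 h leaves and 11.25, 11.18 and 11.13 in control leaves. It fell by 2.09 on the log2 scale, or 4.25-fold (SE 0.16, limma adjusted p = 6.59e-07). At 48 h it had 10.55, 10.30 and 10.56, still below control (log2 fold change -0.72, adjusted p = 0.00973) and above the 6 h level by 1.37 (adjusted p = 3.63e-05). The TOR partners RAPTOR1B (-0.42, adjusted p = 0.16) and RAPTOR1A (0.40, adjusted p = 0.106) did not pass the test at 6 h.

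Of 10 listed regulators of ATG proteins, 3 had a row of their own and all 3 were called at 6 h, 2 as lower, beside 27.4% of all genes called and 13.2% called as lower. TRAF1A and TRAF1B, adaptors that bring ubiquitin ligases to ATG proteins, fell at 6 h (log2 fold changes -0.84 and -0.57, limma adjusted p = 0.004 and 0.0204). The ubiquitin ligase SINAT1, for which ATG13 proteins are reported targets, had 7.44, 7.38 and 7.39 in BrvC 6 h leaves and 6.62, 6.10 and 6.48 in control leaves. It rose by 1.00 on the log2 scale (SE 0.18, adjusted p = 0.000794), in the direction opposite to ATG13B. These are RNA levels, no protein was measured, and a link between SINAT1 and ATG13B was not tested. At 48 h limma called 0 of the 3 against control (0 at an unadjusted p under 0.05), with SINAT1 at 0.02 (95% interval -0.36 to 0.40). The call of TRAF1B at 6 h was lost after renewed quantile normalization (-0.40, adjusted p = 0.0772) and without BrvC 6 h replicate 1 or 3 or control replicate 3 (0.0613 to 0.0802).

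To describe which genes had a profile like that of ATG1A, the only one of the 2 measured genes of the rule called at 6 h, Pearson's r was taken over the 9 arrays. Eligible were the 443 genes outside the lists that carry a symbol in the reference table and have an SD of at least 0.5 over the arrays. The 5 with the highest r were the beta-glucosidase BGLU16 (0.987), the aldehyde dehydrogenase ALDH6B2 (0.972), MCCB of leucine breakdown (0.966), the tetraspanin TET8 (0.965) and the phytanoyl-CoA hydroxylase PAHX (0.964). The 9 points of each gene share arrays, groups and normalization, so that r is a description of these arrays alone. The SD of 0.5 that was required is above that of ATG1A, so that larger changes than its own were fixed by the choice. Lower values at 6 h also follow from the choice by likeness to ATG1A, so that passing the test there is no separate result. The log2 fold changes at 6 h were -3.69 for MCCB, -2.09 for ALDH6B2, -2.06 for BGLU16, -1.09 for PAHX and -0.96 for TET8 (limma adjusted p = 0.000873 or lower). At 48 h only MCCB of these 5 differed from control (-0.76, limma adjusted p = 0.0322), a call lost without BrvC 48 h replicate 2 or 3 or control replicate 1 or 2 (adjusted p = 0.061 to 0.124). The call was also lost under 4 of 11 other settings, counting the stricter threshold (highest limma adjusted p = 0.0749).

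**Figure D5:**
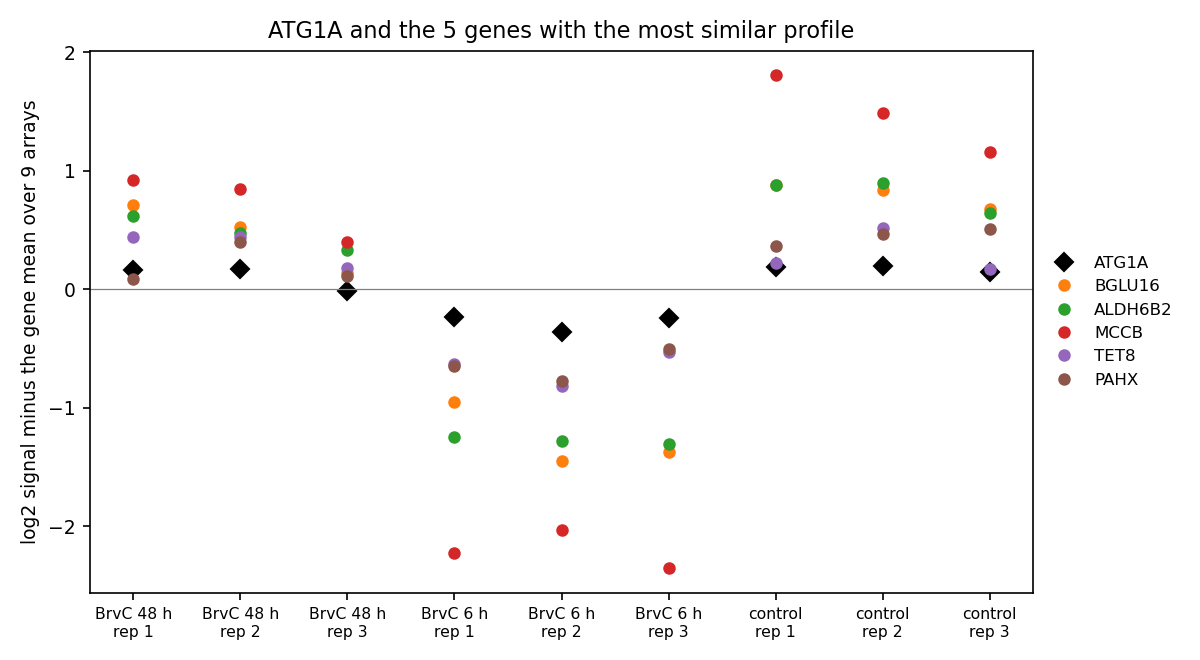
Log2 signal minus the gene's mean over the 9 arrays (vertical axis) for ATG1A (black diamonds) and the 5 genes with the highest Pearson r to it (circles), by array. All 6 genes are below their mean on the 3 BrvC 6 h arrays, and the wider range of the 5 genes follows from the SD required of them.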

How the data were processed

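RNA from 9 samples of detached leaves in 3 groups of 3 was measured on 1 Affymetrix array each. The authors deposited log2 values per probe set. They were made with RMA in oligo, and limma is also named, all without a version, per the submitters' processing notes. By its method RMA subtracts a modelled background, equalizes the distributions of probe signals and combines probes, and differences of low signals come out compressed. The values ran from 0.298 to 13.9. The genome build was not given in the sources used here.

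Of 38408 rows, 16722 had 1 gene in the probe annotation, 759 had several genes and were not used, and 20927 were not listed. For genes with several rows the row with the highest mean was used, which left 16550 genes. Names were updated through the RefSeq table of TAIR10.1, where 16411 genes were found.

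All 9 arrays entered 1 linear model with a mean for each group (limma 3.58.1, R 4.3.3). Tests were two-sided, with Benjamini-Hochberg adjustment over 16550 genes and a threshold of 0.05. The fit was tested on simulated data, with known changes at 6 h against control in 50 genes of each size. It recovered 1 of 50 at a log2 change of 0.5, 28 at 1, 46 at 2 and 50 at 3. Most changes of 0.5 were missed in this simulation. It changed only 200 genes, whereas limma called 27.4% of all genes at 6 h against control in the data. With fewer changed genes the Benjamini-Hochberg adjustment asks for a smaller p, so that these recovery counts do not carry over to the data. A gene that did not pass may still have changed.

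The text names both measured genes of the rule, every measured autophagy gene of the lists, and of the other lists up to 3 genes with the smallest adjusted p at 6 h. The members and lists were chosen with earlier results of these data known. Whether replicate numbers pair samples was checked by correlating deviations from group means over genes. The correlations were 0.302, 0.242 and 0.539 for BrvC 48 h and control. They were -0.032 to 0.034 for BrvC 6 h and control, and -0.051 to 0.102 for BrvC 48 h and 6 h. Only those for BrvC 48 h and control were taken as a sign of pairing, and arrays of unlike number were not compared. The labels call the replicates biological. Alternatives were other row sets, scalings, variance models, pairing, a stricter threshold and leaving out each array.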

Additional observations from a re-analysis of the deposited data

Results flagged for a closer look

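A gene is listed here when its difference from control at 48 h differed from that at 6 h by limma's test, which with shared controls equals the comparison of 48 h with 6 h. Of all genes, 20.3% were called by this test, 9.62% as higher at 48 h. By this test 3 of the 8 other core autophagy genes differed, all higher at 48 h: ATG101 by 1.11, ATG13B by 0.77 and ATG1T by 0.61 on the log2 scale. Of the 9 ATG8 genes 7 differed, all higher at 48 h: ATG8H by 1.81, ATG8A by 1.71, ATG8B by 1.35, ATG8E by 1.08, ATG8I by 0.97, ATG8G by 0.95 and ATG8F by 0.56. The call of ATG1T was lost without any 1 of the 6 arrays (limma adjusted p = 0.0524 to 0.113), that of ATG13B without any 1 of 4 arrays (0.0593 to 0.146), and that of ATG8F without any 1 of 4 arrays (0.056 to 0.0872) and after renewed quantile normalization (0.29, adjusted p = 0.218). ATG1A and ATG3 did not pass this test. Of the kinase subunits and regulators, KINBETA1 (1.37) and TRAF1A (0.75, lost without BrvC 6 h replicate 3, adjusted p = 0.0602) were higher at 48 h than at 6 h. SINAT1 (-0.98) and RAPTOR1A (-0.56, lost without any 1 of 4 arrays, adjusted p = 0.0887 to 0.14) were lower, as were the leaf markers RCA (-0.84) and PRK (-2.41). The 5 genes chosen for their likeness to ATG1A also passed, with MCCB at 2.93, ALDH6B2 at 1.75, BGLU16 at 1.72, TET8 at 1.01 and PAHX at 0.84. Their passing largely follows from how they were chosen and is no separate result. Groups of 3 arrays were not tested for outlying samples.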

How the results depend on the processing

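The count of called genes among ATG1A and ATG3 at 6 h against control (1, ATG1A) was 0 at an adjusted p of 0.01, in the fit to these groups alone (log2 fold change -0.46, adjusted p = 0.0621), with a replicate block in that fit (-0.46, adjusted p = 0.112) and after renewed quantile normalization (-0.19), and 0 without any 1 array (-0.48 to -0.42). With the replicate block over all 9 arrays ATG1A kept its call (adjusted p = 0.0464). For 48 h against 6 h the count was 2 in place of 0 with array weights (0.40 for ATG1A and 0.46 for ATG3) and with an intensity trend and robust prior (0.38 and 0.45). Renewed quantile normalization gave 0.11 and 0.31 for it, and -0.20 for ATG3 at 6 h. Among the 8 other core genes, the count higher in BrvC 48 h than in BrvC 6 h leaves was 3, against 1 at an adjusted p of 0.01, 1 over every row of the value table and 1 to 2 without 1 array, and 3 were lower at 6 h than in control, against 2 to 5 without 1 array (5 without control replicate 3). No other count for these 2 sets moved by over 1.5 times, and no value of ATG1A or ATG3 that was called changed sign. The replicate block changed 1 call at 48 h against control, that of CATHB3. Only for that comparison did the check on replicate numbers give a sign of pairing. The cause of these shifts was not tested.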

Other observations

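The vacuole is where autophagic cargo is broken down, and 4 of 8 listed vacuolar proteases had a row of their own. At 6 h limma called 0 of the 4 against control (0 at an unadjusted p under 0.05), beside 27.4% of all genes. GAMMA-VPE, a vacuolar processing enzyme, had a log2 fold change of -0.27, ALPHA-VPE -0.24 and the cathepsin B gene CATHB3 0.11. ALPHA-VPE had low signals, with means of 2.73 in BrvC 6 h leaves and 2.98 in control leaves. The protease not named had 3.67 and 3.64. At such levels the lack of a call says little. At 48 h CATHB3 had 9.31, 8.95 and 8.49, against 8.49, 8.24 and 8.10 in control leaves, a log2 fold change of 0.64 that did not pass the test (limma adjusted p = 0.0727) and passed with the replicate block over all arrays (adjusted p = 0.0368). The proteasome subunit RPN12A, the only one of 8 listed with a row of its own, had -0.22 at 6 h (95% interval -0.59 to 0.15) and 0.19 at 48 h against control (interval -0.18 to 0.56). The leaf markers RCA and PRK fell at 48 h against control (log2 fold changes -1.42 and -2.11, adjusted p = 0.000208 and 2.89e-05), while ATG1A and ATG3 did not pass the test there.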
